A study of Mus musculus with 2 samples.

Results

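The genes examined here encode the Runx transcription factors and the proteins closest to them: *Runx1*, *Runx2*, *Runx3*, *Cbfb*, *Runx1t1*, *Cbfa2t2* and *Cbfa2t3*. They were chosen by name, and all RefSeq transcripts with NM_ accessions that carry these names were kept, which gave 23 of the 26968 protein-coding transcripts and 7 of the 20657 genes in the table. RNA was measured by strand-specific RNA-seq in 2 mouse cell types of early B cell development, with 1 library for each. Pre-pro-B cells were *Ebf1* -/- cells from female embryonic liver, grown with Il-7, Scf and Flt3l, and pro-B cells were *Rag2* -/- cells from male adult bone marrow, grown with Il-7 alone. Both were on the C57BL/6 background, both were cultured on OP-9 stromal cells, and both were sequenced to about 90 M reads. *Ebf1* encodes a transcription factor needed to enter the B lineage, and *Rag2* encodes a subunit of the recombinase that cuts antigen receptor genes. Cell type therefore cannot be told apart from genotype, sex, age, tissue of origin and cytokines, and since no cell type has a second library, no difference has a replicate check and no p-value is given.

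Runx proteins bind DNA through the runt domain, after which the family is named. Each works as a heterodimer with Cbfb, which does not touch DNA itself but raises the affinity of its partner and protects it from degradation. Runx1 is required for the first blood stem cells and acts with Ebf1 and the E proteins when B cells are specified, Runx2 is best known as the master regulator of bone formation, and Runx3 has roles in cytotoxic T cells, innate lymphocytes and neurons. The ETO proteins *Runx1t1*, *Cbfa2t2* and *Cbfa2t3* are corepressors that bring histone deacetylases to DNA-bound factors, and *Runx1t1* takes its name from its fusion to RUNX1 in acute myeloid leukemia. Each Runx gene can start at a distal or at a proximal promoter, and the choice changes the first residues of the protein and the untranslated leader.

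The promoters are shown first because transcripts of *Runx1* from its distal and proximal starts differed in how their levels compared between the cell types. In RefSeq promoter windows of GRCm38.p6, each running from 250 bases before to 50 bases after a start, 6 of the 7 genes had 9 windows in all. The distal windows of *Runx1* and *Runx3* and the single window of *Runx2* shared an unbroken run of 18 bases, in capitals below, that holds 2 copies of ACCACA, the letters of the Runx recognition motif (reverse strand TGTGGT). The copies do not overlap. Counted from the start, the run begins at base 27 in *Runx1* and 22 in *Runx2*, both on the transcribed side, and at -136 in *Runx3*, before the start. Each gene's run is given with flanks to 30 bases, 5′ to 3′ on the strand of the gene.
Runx1 distal, chr16:92826025-92826054, minus strand: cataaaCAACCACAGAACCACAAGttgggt
Runx2, chr17:44814583-44814612, minus strand: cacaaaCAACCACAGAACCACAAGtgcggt
Runx3 distal, chr4:135120503-135120532, plus strand: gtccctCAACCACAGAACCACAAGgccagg

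Among 32817 mouse promoter windows of the same length, 4 held the whole run on either strand. The fourth belongs to *Gm16225*, whose window overlaps that of *Runx3* on the opposite strand, so the run lies at 3 places. ACCACA or its reverse was found at least once in 16.8% of all windows and at least 2 times in 1.81%. The *Runx2* window held 3 matches, the distal windows of *Runx1* and *Runx3* held 2 each, and the proximal windows of *Runx1* and *Runx3*, and those of *Cbfb*, *Cbfa2t2* and *Cbfa2t3*, held 0. These matches describe letters and were not measured as binding sites.

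The *Runx1* promoters also differed in base composition. The distal window had 45.0% G and C bases and 2 CG dinucleotides, and the proximal window had 69.0% and 35, where the median over all windows was 52.7% and 7. The 250 bases before each start are printed with the CG dinucleotides in capitals. The shared run lies after the distal *Runx1* start and is not among them.
Runx1 distal, chr16:92826075-92826324, minus strand: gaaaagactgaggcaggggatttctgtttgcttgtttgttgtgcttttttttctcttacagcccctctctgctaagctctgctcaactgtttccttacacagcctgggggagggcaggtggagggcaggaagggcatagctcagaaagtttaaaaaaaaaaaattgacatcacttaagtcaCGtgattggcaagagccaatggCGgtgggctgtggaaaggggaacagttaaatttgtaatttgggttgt
Runx1 proximal, chr16:92697330-92697579, minus strand: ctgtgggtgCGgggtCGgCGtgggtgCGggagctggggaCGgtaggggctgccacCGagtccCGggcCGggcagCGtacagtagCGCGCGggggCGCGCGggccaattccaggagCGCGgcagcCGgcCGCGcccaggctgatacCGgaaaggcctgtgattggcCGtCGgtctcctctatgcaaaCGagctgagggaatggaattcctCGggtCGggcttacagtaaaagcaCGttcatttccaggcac

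Distal windows with fewer CG dinucleotides than the proximal ones were also found in *Runx3* (8 and 45) and *Cbfa2t3* (10 and 53), though both distal windows had 63.7% G and C bases, above the median of all windows. The single *Runx2* window had 2 CG dinucleotides and 45.3% G and C bases.

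Levels were read from FPKM, read fragments scaled to transcript length and to library size, which Cuffdiff estimated for each RefSeq transcript together with a lower and an upper 95% limit. FPKM were summed over the NM_ transcripts of a gene. The 3 Runx genes together stood at 119 FPKM in pre-pro-B and at 20.3 in pro-B cells, a 5.84-fold lower level, and each of the 3 was lower in pro-B cells. *Cbfb* stood at 128 and 178 FPKM. Runx transcripts thus amounted to 0.930 FPKM per FPKM of *Cbfb* in pre-pro-B and to 0.115 in pro-B cells. The ETO genes together stood at 20.03 and 20.7 FPKM, but the members that made up the sum were not the same. As RNA was measured in bulk, fewer cells expressing a gene and less RNA per cell cannot be told apart.

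**Figure D1:**
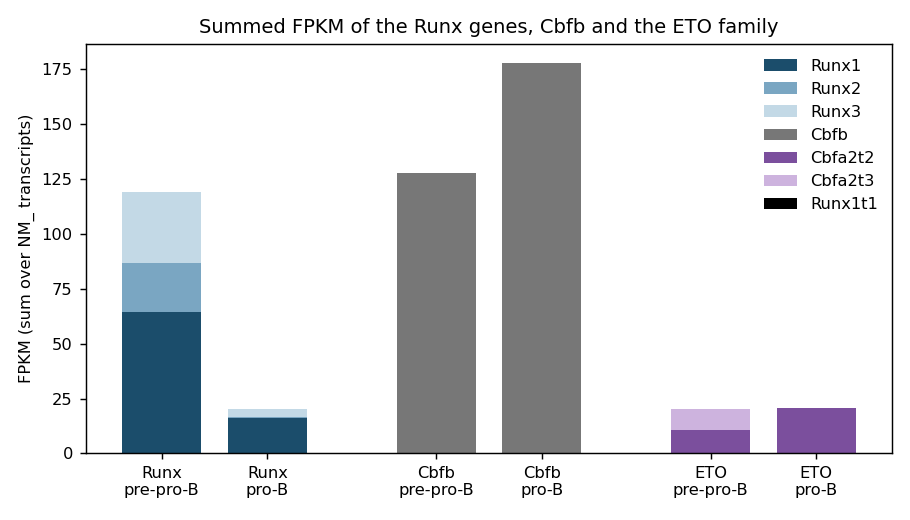
Summed FPKM (vertical axis, linear from 0) of the Runx genes, *Cbfb* and the ETO genes in the 1 library of each cell type, with stacked segments for single genes. The Runx stack stands at 119 in pre-pro-B and 20.3 in pro-B cells, while the ETO stacks stand at 20.03 and 20.7 with *Cbfa2t3* filling 47.5% of the first and 0.333% of the second.

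Of the 7 genes, 6 reached 1 FPKM in either library. Changes were expressed as the log2 ratio of pro-B over pre-pro-B after adding 1 to each FPKM, which understates the change of low genes. At least a 2-fold difference on this scale was found in 4 of the 6, *Runx1*, *Runx2*, *Runx3* and *Cbfa2t3*, and all 4 were lower in pro-B cells. Over all 10669 genes that reached 1 FPKM in either library, 19.2% were at least 2-fold lower and 12.3% at least 2-fold higher. None of the 6 was higher by that measure, and *Cbfb* and *Cbfa2t2* were within 2-fold. The median log2 ratio of the 10669 genes was -0.14.

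*Runx1* (chromosome 16 of mm9, 92601711 to 92826311) had 64.4 FPKM in pre-pro-B and 16.3 in pro-B cells (log2 ratio -1.92). It ranked above 90.8% of expressed genes in the first and above 59.4% in the second. *Runx3* (chromosome 4, 134676560 to 134733905) had 32.1 and 3.79 FPKM (log2 ratio -2.79). For *Runx2* (chromosome 17, 44632936 to 44951746 in GENCODE) the values were 22.3 and 0.307 FPKM (log2 ratio -4.16). Over protein-coding transcripts the order *Runx1*, *Runx3*, *Runx2* was the same in both libraries. With its non-coding transcripts included, *Runx2* stood at 61.4 FPKM in pre-pro-B cells, above *Runx3*. The order, the shares that follow and the Runx sum per *Cbfb* in pre-pro-B cells therefore depend on leaving those transcripts out. *Runx1* made up 54.2% of the Runx sum in pre-pro-B and 79.9% in pro-B cells, *Runx3* 27.0% and 18.6%, and *Runx2* 18.8% and 1.51%.

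*Cbfb* (chromosome 8, 107694574 to 107741888), the shared β subunit, was the highest of the 7 genes in both libraries and ranked above 96.8% and 97.4% of expressed genes. Its level was 1.39-fold higher in pro-B cells (log2 ratio 0.47). Among the corepressors, *Cbfa2t2* (chromosome 2, 154262220 to 154365092) had 10.5 FPKM in pre-pro-B and 20.6 in pro-B cells, a 1.96-fold higher level. Its log2 ratio of 0.91, taken after adding 1 to each FPKM, was short of the 2-fold threshold. *Cbfa2t3* (chromosome 8, 125149036 to 125223009), also called ETO2, had 9.52 FPKM in pre-pro-B and 0.0691 in pro-B cells (log2 ratio -3.30). *Runx1t1* (chromosome 4, 13670449 to 13820790) stood at 0 in the pre-pro-B library and at 0.0606 in pro-B cells. *Cbfa2t2* and *Cbfa2t3* were thus near each other in pre-pro-B cells, while *Cbfa2t2* made up 99.4% of the ETO sum in pro-B cells.

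**Figure D2:**
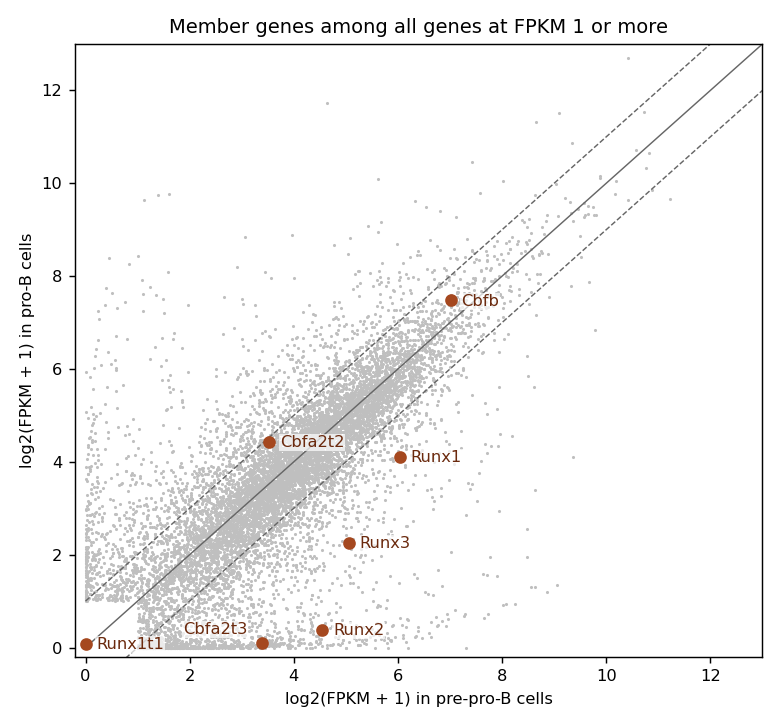
Each grey point is 1 of 10669 genes, with log2(FPKM + 1) in pre-pro-B cells on the horizontal and in pro-B cells on the vertical axis; the solid line marks equal levels, the dashed lines mark 2-fold, and the labelled points are the 7 genes. *Runx1*, *Runx2*, *Runx3* and *Cbfa2t3* lie below the lower dashed line, and *Cbfb* and *Cbfa2t2* lie between the dashed lines.

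The limits around single transcripts were wide. Of the 23 transcripts, 17 had a lower limit of 0 in pre-pro-B and 18 in pro-B cells. Limits that did not overlap between the libraries were found for 1 of the 23, the *Cbfa2t3* transcript NM_009824, which had 8.21 FPKM in pre-pro-B cells (limits 0.712 to 16.4) and was listed at 0 in pro-B cells (limits 0 to 0.00804). Over all 26710 NM_ transcripts with a usable estimate in both libraries, limits lay apart with pro-B lower in 1.45% and with pro-B higher in 0.674%. For the other transcripts the limits of the cell types overlapped, so the differences of transcripts and isoform shares are descriptions of 2 libraries. At 90 M reads, 3 fragments on a transcript of these lengths would give an FPKM of about 0.00435 to 0.0121. A value below this approximate level cannot be distinguished from none, but a value above it is not thereby detected. The level leaves out how reads were divided among isoforms. Lower limits of 0 were also given far above it, as for *Cbfb* NM_001161458 at 26.8 FPKM in pre-pro-B cells.

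**Figure D3:**
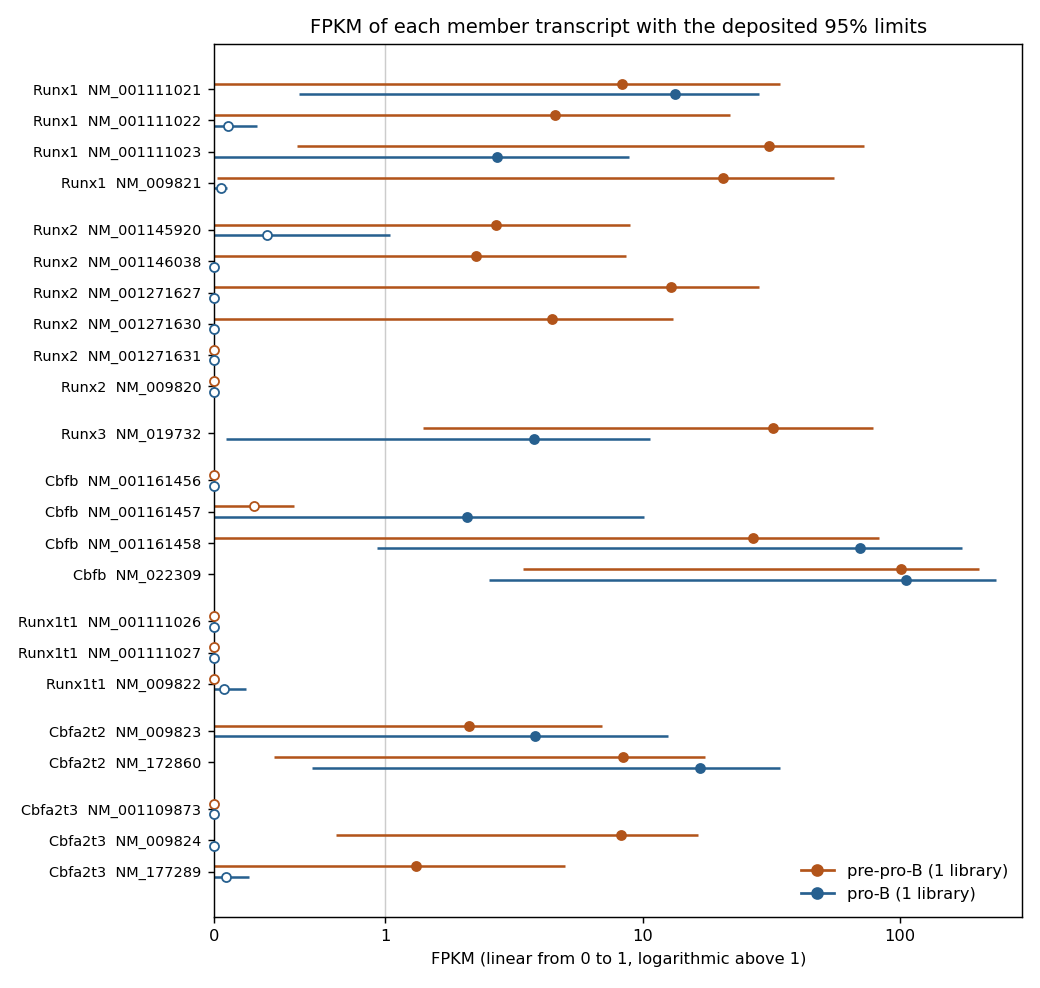
FPKM (horizontal axis, linear from 0 to 1 and logarithmic above) of the 23 transcripts, with points for the estimates, open where below 1, and lines for the deposited 95% limits. The lines of the 2 cell types overlap for all transcripts except *Cbfa2t3* NM_009824.

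The *Runx1* sum came from 4 transcripts. By their lengths, 3 of them matched a GENCODE model on the same assembly to within 1 base: NM_001111021 starts at the distal site (position 92826311) and encodes 465 residues, and NM_001111023 and NM_009821 start at the proximal site (position 92697573), 128738 bases downstream, and encode 451 and 387 residues. The last differs from NM_001111023 by a single exon of 192 bases, or 64 residues, at 92644399 to 92644590, which lies downstream of the exons for the runt domain. NM_001111022 was 192 bases shorter than NM_001111021 and was read as the distal form without this exon, an assignment that rests on length alone. The exon, read from NCBIM37 (the assembly of mm9) on the minus strand, is flanked by AG before and GT after it and is printed because it separates the long from the short forms.
Runx1 exon, chr16:92644399-92644590, minus strand: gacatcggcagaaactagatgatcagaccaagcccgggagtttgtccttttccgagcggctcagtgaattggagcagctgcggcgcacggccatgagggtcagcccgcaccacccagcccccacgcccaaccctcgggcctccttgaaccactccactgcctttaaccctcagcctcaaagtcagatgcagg

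The distal form with the exon, NM_001111021, had 8.29 FPKM in pre-pro-B cells (limits 0 to 34.1) and 13.4 in pro-B cells (limits 0.493 to 28.4). It was the highest *Runx1* transcript in pro-B cells and the third of 4 in pre-pro-B cells. The proximal form with the exon, NM_001111023, had 31.0 FPKM (limits 0.483 to 72.7) and 2.70 (limits 0 to 8.83), which made it the highest in pre-pro-B cells. The proximal form without the exon, NM_009821, had 20.5 FPKM in pre-pro-B cells (limits 0.0177 to 55.4) and 0.0419 in pro-B cells (limits 0 to 0.0768). The distal form without it, NM_001111022, had 4.58 FPKM (limits 0 to 21.8) and 0.0840 (limits 0 to 0.250). Of the 4 forms, the distal one with the exon was higher in pro-B cells and the other 3 were lower.

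Summed by start site, the distal forms stood at 12.9 FPKM in pre-pro-B and 13.5 in pro-B cells, differing by 1.05-fold. The proximal forms stood at 51.5 and 2.75 FPKM, 18.8-fold lower in pro-B cells. The lower *Runx1* sum of pro-B cells was therefore carried by the proximal forms, and the distal share of *Runx1* was 19.98% in pre-pro-B and 83.1% in pro-B cells. Summed by exon, the forms that include it stood at 39.3 and 16.1 FPKM and those that skip it at 25.1 and 0.126. The skipping share was 39.0% of *Runx1* in pre-pro-B and 0.775% in pro-B cells. Since Cuffdiff divides reads that fit several isoforms among them by a model, and these 4 share most of their exons, the shares depend on that division.

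**Figure D4:**
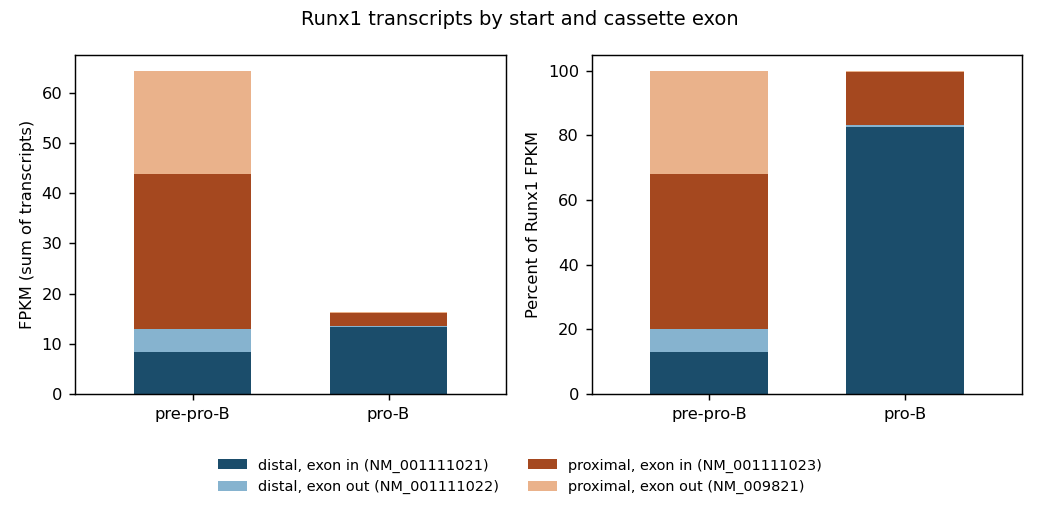
FPKM (left, linear from 0) and percent of the gene's FPKM (right) of the 4 *Runx1* transcripts in each library, coloured by start (distal blue, proximal brown) and by the 192-base exon (dark in, light out). The blue segments together reach 12.9 and 13.5 FPKM, and the brown ones 51.5 and 2.75 FPKM.

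*Runx3* had 1 protein-coding transcript in the table, NM_019732, at 32.1 FPKM in pre-pro-B cells (limits 1.401 to 78.4) and 3.79 in pro-B cells (limits 0.0711 to 10.7), an 8.49-fold lower level. Its locus begins at the distal start (position 134676567 in the GENCODE model, which encodes 423 residues), so distal and proximal *Runx3* forms could not be compared.

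*Runx2* had 6 protein-coding transcripts. In the pre-pro-B library NM_001271627 led with 12.9 FPKM (limits 0 to 28.4), or 57.9% of the gene, followed by NM_001271630 with 4.44 (limits 0 to 13.1), NM_001145920 with 2.70 (limits 0 to 8.93) and NM_001146038 with 2.25 (limits 0 to 8.61). NM_001271631 was listed at 0, and NM_009820, at 0.000879, lay under the approximate 3-fragment level. In pro-B cells NM_001145920 alone was above 0, at 0.307 FPKM (limits 0 to 1.04). Cuffdiff placed *Runx2* in 1 locus, reaching to 45256233, together with *Supt3*, a subunit of the SAGA coactivator complex, which had 8.09 FPKM in pre-pro-B cells (limits 0 to 37.2) and 3.78 in pro-B cells (limits 0 to 9.64).

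*Cbfb* had 4 transcripts, of which a pair carried nearly the whole sum. NM_022309, whose nearest model encodes 187 residues, had 101 FPKM in pre-pro-B cells (limits 3.42 to 204) and 105 in pro-B cells (limits 2.52 to 237), differing by 1.05-fold. NM_001161458, whose nearest model encodes 182 residues, had 26.8 FPKM (limits 0 to 83.2) and 70.1 (limits 0.950 to 175), 2.61-fold higher in pro-B cells. NM_001161458 thus made up 86.9% of the 49.8 FPKM by which the *Cbfb* sums differed, and its share of the gene was 21.0% in pre-pro-B and 39.4% in pro-B cells. NM_001161457, with 155 residues in its model, had 0.236 FPKM (limits 0 to 0.467) and 2.08 (limits 0 to 10.1), and NM_001161456, with 148 residues, was listed at 0 in both. The models of the leading pair differed from the RefSeq lengths by 7 and 2 bases.

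*Cbfa2t2* NM_172860 had 8.40 FPKM in pre-pro-B (limits 0.350 to 17.5) and 16.8 in pro-B cells (limits 0.572 to 34.3), and NM_009823 had 2.11 (limits 0 to 6.98) and 3.82 (limits 0 to 12.5). NM_172860 made up 79.9% and 81.5% of the gene, so both transcripts were higher by nearly the same factor, 2.00 and 1.81. In *Cbfa2t3*, the transcript NM_009824 made up 86.2% of the gene in pre-pro-B cells and was listed at 0 in pro-B cells, while NM_177289 had 1.31 FPKM (limits 0 to 5.00) and 0.0680 (limits 0 to 0.205). NM_001109873 was listed at 0 and at 0.00106, under the approximate 3-fragment level. Of the 3 *Runx1t1* transcripts, NM_009822 was listed at 0 in pre-pro-B and at 0.0604 in pro-B cells (limits 0 to 0.189), and the other two were at 0 or under the 3-fragment level in both.

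Genes whose pair of levels was most like that of each member were found as the 3 with the smallest Euclidean distance in log2(FPKM + 1) over the 2 libraries. For *Runx1* these were *Net1* (distance 0.06, 62.8 and 16.9 FPKM), *Milr1* (distance 0.09) and *Ift57* (distance 0.12). For *Runx2* they were *Fes* (distance 0.09, 21.3 and 0.361 FPKM), *Plekhb2* and *Il1r2*, and for *Runx3* they were *5430427O19Rik* (distance 0.11, 34.2 and 4.02 FPKM), *Agtrap* and *Pag1*. *Cbfb* was nearest to *Matr3* (distance 0.01, 128 and 177 FPKM), *Arpc5* and *Srsf2*. The ETO gene *Cbfa2t2* lay nearest to *3830406C13Rik*, *Gphn* and *Qser1*, and *Cbfa2t3* to *Rassf4* (distance 0.02, 9.51 and 0.0555 FPKM), *Adgra3* and *Tmem119*. With only 2 libraries such likeness is common and is given as a description.

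Partners and targets were read from lists, beside 19.2% of all genes at least 2-fold lower and 12.3% at least 2-fold higher. Of 24 coactivators and modifying enzymes, 23 were found and 21 reached 1 FPKM. Of these, 2 were lower and 3 higher in pro-B cells, with a median log2 ratio of -0.09 beside -0.14 over all genes. Lower were *Cdk6*, a cell cycle kinase that binds the runt domain, with 100.4 and 8.39 FPKM, and the ubiquitin ligase *Nedd4*, with 262 and 99.2. Higher were *Ccnd3*, cyclin D3, with 50.1 and 577 FPKM, *Cdc20*, an activator of the anaphase-promoting complex, with 14.8 and 63.6, and the RNA export factor *Alyref*, with 95.01 and 217. The acetyltransferases *Ep300* (26.8 and 19.8 FPKM) and *Crebbp* (21.0 and 16.8) and the methyltransferase *Prmt1* (43.5 and 34.9) were within 2-fold.

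Of 17 corepressors, 16 reached 1 FPKM, with 2 lower and 1 higher, beside 19.2% and 12.3% of all genes, and a median log2 ratio of -0.11. *Tle3*, a Groucho corepressor that binds the C-terminal end of Runx proteins, had 52.8 FPKM in pre-pro-B and 9.37 in pro-B cells, and the deacetylase *Hdac1* had 11.2 and 1.53. *Hdac8* had 6.17 and 14.2 FPKM. The highest of the list, *Tbl1xr1* (89.96 and 51.8 FPKM) and *Ncor1* (72.9 and 66.2), both parts of the complex that ETO proteins recruit, were within 2-fold.

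The factors that meet *Cbfa2t3* in the hematopoietic Tal1 complex were measured from a list of 15, of which 13 reached 1 FPKM. Lower by at least 2-fold were 6, and higher were 3, beside 19.2% and 12.3% of all genes, with a median log2 ratio of -0.97 beside -0.14. *Lmo2*, the adaptor of that complex, had 26.9 FPKM in pre-pro-B and 0.930 in pro-B cells, *Ssbp2*, which stabilizes its partner Ldb1, had 22.6 and 2.51, and the basic helix-loop-helix factor *Lyl1* had 22.4 and 3.28. The ETO2 interactor *Irf2bp2*, the highest of the list, had 142 and 32.8 FPKM. The E protein genes *Tcf3* (42.4 and 97.5 FPKM) and *Tcf4* (35.3 and 75.8) were higher in pro-B cells, as was the repressor *Gfi1* (2.86 and 10.7). *Tal1* itself stood at 1.18 and 0.0501 FPKM, and *Gata2* was listed at 0 in both.

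Genes known as Runx targets in blood cells lay on both sides. Of 40, 25 reached 1 FPKM, with 13 lower and 6 higher, beside 19.2% and 12.3% of all genes, and a median log2 ratio of -1.10 beside -0.14. Among the lower were the progenitor genes *Cd34* (534 and 1.52 FPKM) and *Kit* (107 and 0.377), the T cell gene *Cd3g* (36.8 and 0.0351) and the survival gene *Bcl2* (172 and 10.4). The higher ones included the B cell genes *Cd79a* (0.200 and 135 FPKM) and *Ebf1* (64.0 and 273). *Ebf1* is the gene inactivated in the pre-pro-B cells, and its limits overlapped (2.78 to 149 and 8.50 to 729). *Myb*, needed for lymphoid progenitors, had 280 and 431 FPKM, within 2-fold. This list overlaps the B lineage and other marker lists, so its counts are not separate from theirs.

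Genes that Runx2 controls in bone were mostly low. Of 21, 7 reached 1 FPKM, with 2 lower and 3 higher in pro-B cells, beside 19.2% and 12.3% of all genes, and a median log2 ratio of 0.89. *Sp7*, the osteoblast factor that acts after Runx2, had 5.53 FPKM in pre-pro-B and 0.0174 in pro-B cells, and *Tnfsf11*, the ligand RANKL, had 17.5 and 1.46. In the opposite direction, *Alpl*, alkaline phosphatase, had 0.186 and 97.5 FPKM and the collagen gene *Col1a2* had 0.707 and 2.82. *Col1a2* and *Col1a1* are also among the stromal markers given below, which could report OP-9 cells, so the counts of these lists are not separate. *Vegfa*, the vascular growth factor, had 31.0 and 28.2 FPKM, and the matrix genes *Ibsp*, *Mmp9* and *Dmp1* were listed at 0 in both libraries.

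**Figure D5:**
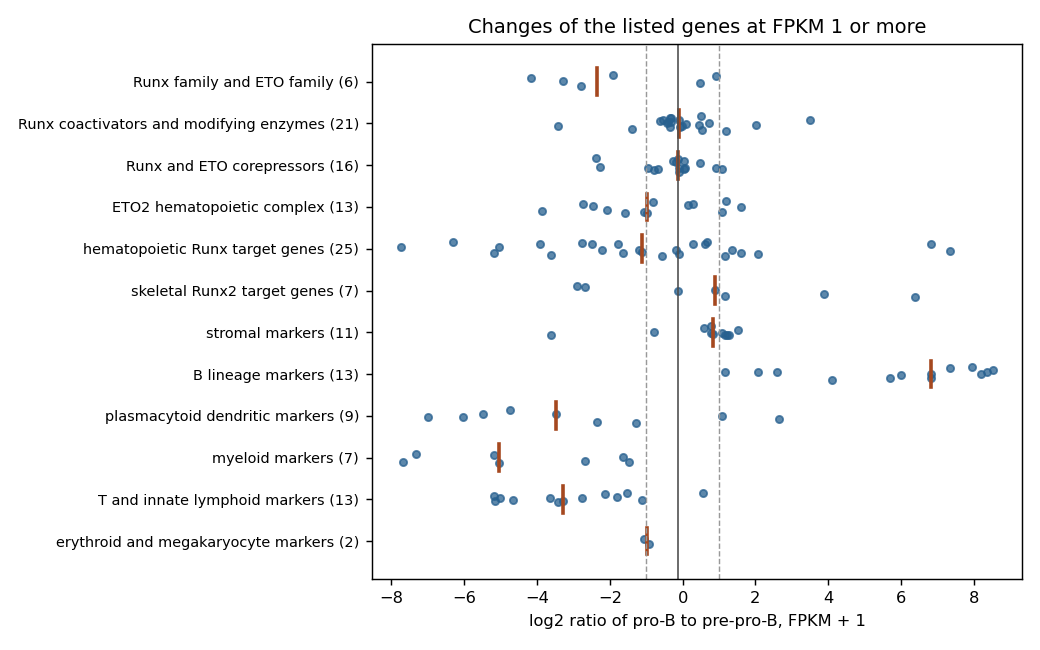
Each point is a gene that reached 1 FPKM in either library, placed by its log2 ratio of pro-B over pre-pro-B (horizontal axis, FPKM + 1), with 1 row for each list and the number of genes in brackets. Brown bars are list medians, the solid line is the median of all genes (-0.14) and the dashed lines mark 2-fold; the coactivator and corepressor medians lie by the solid line and the B lineage median lies at 6.82.

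The labels were checked against marker genes, which also show what moved with the members. Of 13 measured B lineage markers, 13 were higher in pro-B cells, with summed FPKM of 121 and 4356. They include *Ebf1*, the gene inactivated in the pre-pro-B cells, so *Ebf1* is not a marker independent of genotype. Among markers that reached 1 FPKM in either library, 7 of 7 myeloid ones (15 listed, sums 958 and 9.42) were lower in pro-B cells. So were 12 of 13 T and innate lymphoid ones (19 listed, sums 248 and 39.8) and 7 of 9 plasmacytoid dendritic ones (12 listed, sums 817 and 247). Over all genes 19.2% were lower and 12.3% higher. *Tcf4* and *Spib* were the plasmacytoid dendritic markers that were higher. The expressed T and innate lymphoid marker that was not lower was *Zap70* (21.8 and 32.9 FPKM, within 2-fold), which made up most of that list's sum in pro-B cells. *Tyrobp* and *Fcer1g* (463 and 395 FPKM in pre-pro-B cells) made up most of the myeloid sum. Others, such as *Elane*, *Ctsg*, *Cd3e* and *Cd8a*, stayed under 1 FPKM in both libraries. Expressed markers of other lineages were thus mostly lower, as were *Runx1*, *Runx2*, *Runx3* and *Cbfa2t3*. The part of such cells or programmes in the values of the members was not tested. Of 20 stromal markers, which could report OP-9 cells, 11 reached 1 FPKM, 1 was lower and 5 were higher, and the sums were 27.4 and 31.2 FPKM, with *Postn*, *Dcn* and *Ccn2* listed at 0 in both. *Pdgfrb* (15.9 and 0.377 FPKM) was the stromal marker that was lower, and without it the sums of the other 19 were 11.5 and 30.8 FPKM, 2.67-fold higher in pro-B cells. Of 10 measured erythroid and megakaryocyte markers, 2 reached 1 FPKM, *Tal1* and *Itga2b* (1.18 and 0.147), and the sums were 3.09 and 0.469. *Ebf1* and *Rag2* transcripts were present in the library of their own null cells, at 64.0 and 22.9 FPKM, a level that covers the whole transcript and does not show which part of the gene was read.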

How the data were processed

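RNA-seq was measured in 1 library of *Ebf1* -/- pre-pro-B cells and 1 of *Rag2* -/- pro-B cells. The authors removed ribosomal RNA, made strand-specific libraries, aligned the reads to mm9 with TopHat (version 1.5 in the submitters' processing notes) and deposited FPKM with 95% limits for each of 30485 RefSeq transcripts, estimated with Cuffdiff 2.1.1 without scaling between libraries. A second deposited table holds the authors' own comparison and repeats FPKM in 2 per-sample columns, which were not used.

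NM_ transcripts were named through a RefSeq gene table of GRCm38.p6, which matched 26555 of 26968 rows, and the rest kept their accession as a name. FPKM were summed per gene. Log2 ratios and 2-fold calls used a pseudocount of 1, while the folds given in the text are plain ratios of FPKM. Genes were counted where they reached 1 FPKM in either library and differed by 2-fold after the pseudocount was added. Starts and exons came from the GENCODE annotation of NCBIM37, by transcript length to within 10 bases, which resolved 8 of the 23 transcripts. Promoter sequences are RefSeq's, on GRCm38.p6, and none of their coordinates was carried to mm9. Named in each partner and target list were the 3 genes with the largest change in each direction past the threshold and the 2 with the highest FPKM, beside all members; *Ep300*, *Crebbp*, *Prmt1*, *Bcl2*, *Tal1*, *Gata2*, *Itga2b* and the genes listed at 0 were chosen after their values were seen. Some genes that this rule names are not reported here. The members and the lists were chosen with earlier results of these data known. On simulated data the fold count called 100 of 100 genes set 4-fold higher, 100 of 100 set 4-fold lower and 0 of 8420 unchanged genes. The simulated noise was small beside the 2-fold threshold, so this outcome followed from the settings. It checks the counting code only and gives no rate of false calls between single libraries. Alternatives were other pseudocounts, thresholds and filters, TPM and median-ratio scaling, the most abundant transcript, non-coding transcripts and length-weighted shares; the stromal sum without *Pdgfrb* was added after seeing the data. FPKM carry no counts, so precision rests on the deposited limits, which cover Cuffdiff's model and not biological replication. Analyses used Python 3.11.15, numpy 2.4.6, pandas 2.3.3 and matplotlib 3.10.9.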

Additional observations from a re-analysis of the deposited data

Results flagged for a closer look

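Non-coding *Runx2* transcripts, which were left out of the sums above, gave a signal larger than that of the protein-coding ones. NR_073392 had 38.1 FPKM in pre-pro-B cells (limits 4.84 to 71.3) and 8.22e-05 in pro-B cells (limits 0 to 0). Its limits did not overlap, but the pro-B limits do not hold their own estimate. No share of non-coding transcripts with limits apart was computed to set beside it. NR_073425 had 0.980 FPKM in pre-pro-B cells (limits 0 to 5.06) and was listed at 0 in pro-B cells. Both were above the approximate 3-fragment level (0.00607 and 0.0118 FPKM) in pre-pro-B cells, though the lower limit of NR_073425 was 0. Together the NR_ transcripts held 63.7% of all *Runx2* FPKM in pre-pro-B cells, 39.1 of 61.4, and 0.0268% in pro-B cells. How Cuffdiff divided reads between them and the coding transcripts was not tested.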

How the results depend on the processing

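No paired analysis was possible because each cell type has 1 library. The sign of the log2 ratio of *Runx1*, *Runx2*, *Runx3* and *Cbfa2t3* was the same under every alternative run, but not every call was kept, and of 91 recomputed values 18 moved by more than 1.5-fold. The log2 ratio of *Runx2* was -5.78 and -6.14 with pseudocounts of 0.1 and 0.01, -5.17 after rescaling to TPM and -5.58 with NR_ transcripts included. For *Cbfa2t3* it was -5.83, -6.91 and -4.60 with the same pseudocounts and TPM. *Runx1t1*, listed at 0 in pre-pro-B cells, gave 0.68 and 2.82 with the smaller pseudocounts, and *Runx1* gave -3.11 from its most abundant transcript alone, the proximal NM_001111023. That transcript led in pre-pro-B cells, whereas the distal NM_001111021, which led in pro-B cells, had a log2 ratio of 0.63. The sign of *Runx1* from a single transcript therefore depends on the library used to choose it. Requiring an FPKM of at least 1 in both libraries left 2 members lower by 2-fold, since *Runx2* and *Cbfa2t3* no longer entered, and 11.2% of all genes. Without a filter 9.90% of all genes were lower and 6.36% higher, and at a threshold of 4-fold 7.47% and 4.29%. At that threshold 3 members were lower, since *Runx1* (-1.92) no longer passed. Among transcripts at an FPKM of at least 1, limits lay apart in 2.99% (lower) and 1.39% (higher). The cause of these moves was not tested otherwise.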
